A study of Mus musculus with 12 samples.

Results

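The Cep genes encode centrosomal proteins, most of them long coiled-coil proteins. The centrosome is built around a pair of centrioles. Centrioles are duplicated in the cell cycle, and in a resting cell the older centriole can dock at the membrane through its distal appendages and grow a primary cilium, a sensory organelle that neurons and glia carry and that hepatocytes largely lack. Changes in several of these genes are known from human ciliopathies and from inherited small brain size.

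Members were chosen by symbol, as protein-coding genes named Cep followed by a number with an optional letter or l suffix, which gave 35 of the 55487 genes in the table. Cep83 drew attention to the group because its genotype difference was not alike in the 2 tissues of these same mice, so its genotype values are a description here and were not used as evidence. The 35 genes lie on 15 chromosomes. By general knowledge, 14 act in centriole assembly and number, 14 in appendages and the cilium, 2 in the linker that ties centrosomes together, 1 in cell division (Cep55) and 4 were set aside as other centrosomal genes.

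Liver and brain RNA of 6 mice was sequenced, 3 labelled KO (mice A, C and F) and 3 labelled WT (mice B, D and E), which gave 4 groups of 3 libraries. KO mice carried a Mettl5 allele that had lost exon 2 after a cross of floxed mice to CMV-cre mice, which delete in all tissues. METTL5 methylates an adenosine of 18S rRNA. Controls are WT by their labels and in the title of the study's supplementary table of mouse RNA sequencing. Figure legends of the study differ. Those on the differing genes and on thyroid hormone describe the control mice as heterozygous, Mettl5+/-, in 3 pairs. A supplementary legend on reads at Mettl5 names a Mettl5+/+ and a Mettl5-/- littermate. WT is used here as the label, and whether these mice carried 1 or 2 intact alleles was not settled. No label gives age, sex or litter. Mettl5 ran from 4.64 to 5.22 CPM in KO liver, against 10.1 to 18.9 CPM in the WT livers, and in brain from 2.61 to 3.12 CPM with KO against 3.95 to 7.12 CPM with WT, without overlap in either tissue. CPM, reads scaled to a common library size, are given on a single TMM scaling of all 12 libraries. Neuronal markers summed to 1780 to 2250 CPM in brain and to 10.5 to 21.5 CPM in liver, and hepatocyte markers to at least 71100 CPM in liver and at most 25.3 CPM in brain. Mice E and F, 1 of each genotype, held 1 to 20 counts per library of the Y-linked genes Ddx3y, Eif2s3y, Kdm5d and Uty summed, where each library of the other mice held at least 2112.

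Cep genes were expressed in both tissues at low to moderate levels. To compare genes with each other, CPM were divided by the counted exon length in kilobases. In WT liver the highest Cep genes were Cep85, which acts in centriole duplication, at 11.7 ± 2.31 CPM per kilobase (SD, n = 3), Cep85l, its paralogue, at 10.02 ± 2.16, and Cep350, a large centriole-anchored protein, at 9.29 ± 0.519. In WT brain they were Cep170b at 22.4 ± 7.01, Cep19, which acts in the start of cilium growth, at 18.1 ± 1.49, and Cep120, which acts in centriole elongation, at 7.96 ± 1.18 CPM per kilobase, level with Cep350 at 7.94 ± 0.608. Cep170b, a relative of the appendage protein Cep170, and Cep19 did not differ beyond their spread in brain, and neither did the 3 leading genes of liver. Among the lowest was Cep55, which acts at the midbody when daughter cells part: its mean in the 4 groups was 0.0227 to 0.0815 CPM per kilobase and no library held more than 6 counts of it. In liver Cep126 was level with it within their spread, at 0.0806 ± 0.0486 against 0.0798 ± 0.0481 CPM per kilobase in WT mice and at 0.0342 ± 0.0289 against 0.0815 ± 0.0723 with KO, followed by Cep72, a satellite protein, at 0.122 ± 0.0124 in WT liver. In WT brain Cep55 was followed by Cep72 (0.260 ± 0.0145) and Cep41 (0.601 ± 0.115 CPM per kilobase).

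**Figure D1:**
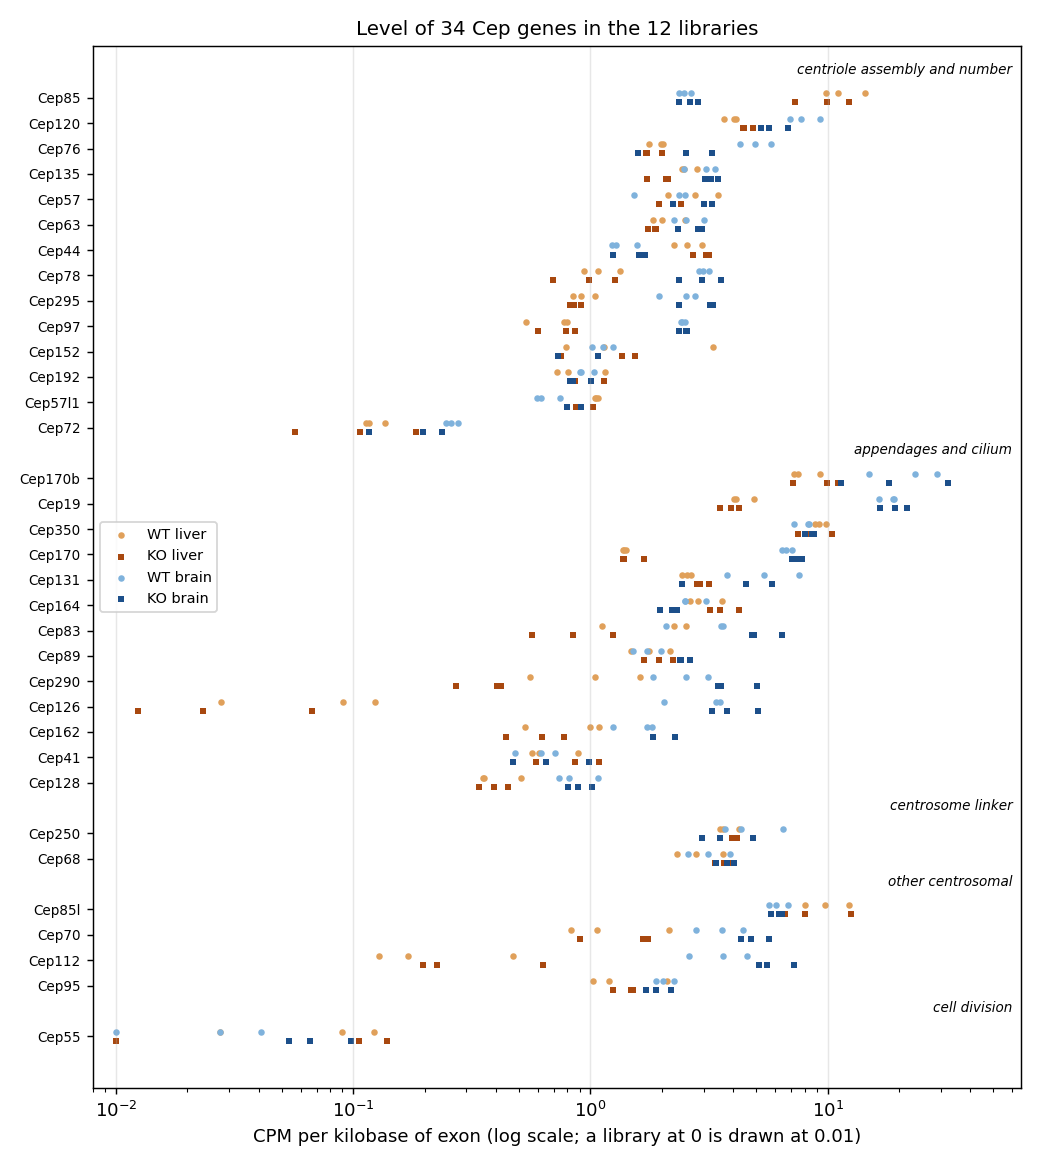
Level of 34 of the 35 Cep genes in CPM per kilobase of exon on a log axis, with 1 point per library (3 each of WT liver, KO liver, WT brain and KO brain) and genes grouped by role. The brain points of Cep126, Cep112, Cep170 and Cep19 lie to the right of all their liver points, those of Cep85 and Cep44 to the left, and Cep55 lies at the low end in all groups.

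The comparison of liver with brain within a genotype asks which Cep genes each tissue uses. It was made once in WT and once in KO mice, which share no library. The tissue differences of Cep83 are a description, since the gap between them is the contrast that drew attention to it. Of the 34 Cep genes tested in WT mice (Cep55 was too low), 18 were higher in brain and 4 higher in liver past the threshold, an adjusted p of less than 0.1 over all 17694 genes (edgeR's quasi-likelihood test). Over all genes 42.9% were called higher in brain and 35.4% higher in liver, 78.3% in all. In KO mice 19 Cep genes were higher in brain and 4 higher in liver, against 44.1% and 36.2% of all 17396 genes, 80.2% in all. The median log2 fold change of the Cep genes, liver minus brain, was -0.75 in WT and -0.49 in KO mice, against -0.16 and -0.17 over all genes tested. With Cep83 left out, 17 of 33 Cep genes were higher in brain and 4 higher in liver in WT mice (median -0.87), and 18 and 4 in KO mice (median -0.45). A total of 18 Cep genes were called in both genotypes, each in the same direction in both, 15 higher in brain, Cep83 included, and 3 higher in liver.

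This split depended on an adjustment for GC content and exon length. With a per-library offset for both, WT mice gave 17 Cep genes higher in liver and 9 higher in brain, where 47.3% and 36% of all genes were. KO mice gave 15 and 10, where 47.2% and 36.6% of all genes were, while the median of all genes moved to 0.32 and 0.31 (log2, liver minus brain). When the offset was centred so that it left the overall scaling alone, an alternative chosen after the uncentred result was seen, WT mice gave 9 higher in liver and 12 higher in brain, where 37.2% and 44.2% of all genes were. KO mice gave 8 and 16, where 37.5% and 44.9% of all genes were. The genes described next are those that were called in both genotypes. Over all 28 fits of tissue that were made, 14 in each genotype, 7 Cep genes were called higher in brain every time (Cep112, Cep126, Cep170, Cep19, Cep70, Cep78 and Cep97) and 2 higher in liver every time (Cep44 and Cep85).

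Cep126, a pericentriolar protein with a part in cilium formation, was close to absent from liver. Its level was 0.523, 0.159 and 0.709 CPM in WT liver (mice B, D and E) and 0.385, 0.0714 and 0.134 CPM in KO liver (mice A, C and F), from at most 10 counts in a library. In brain it was 19.5, 11.7 and 20.2 CPM in WT and 29.3, 18.6 and 21.7 CPM in KO mice. Every brain library thus lay far above every liver library, with a log2 fold change of -5.15 ± 0.41 (SE) in WT and -6.87 ± 0.41 in KO mice (adjusted p = 8.95e-07 and 1.88e-07, edgeR).

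Cep112 had the second largest excess in brain. It was at 1.05, 0.796 and 2.91 CPM in WT liver and at 1.39, 1.21 and 3.88 CPM in KO liver, where the highest library of each genotype was the mouse without Y-linked transcripts. In brain it was at 28.2, 22.3 and 16.1 CPM in WT and at 44.4, 31.8 and 34.1 CPM in KO mice. The log2 fold change was -3.79 ± 0.42 in WT and -4.07 ± 0.39 in KO mice (adjusted p = 1.62e-05 and 7.25e-06, edgeR). The locus overlaps other annotated transcripts on the same strand (Cep112it) and on the opposite strand (Cep112os1).

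Cep170, a protein of the subdistal appendages that anchor microtubules, varied little between libraries of a group. WT liver held 25.5, 24.7 and 25.0 CPM and WT brain 127, 116 and 120.1 CPM, and KO mice held 30.4, 25.0 and 24.8 CPM in liver and 135, 128 and 140.1 CPM in brain. The difference was -2.27 ± 0.15 on the log2 scale in WT and -2.33 ± 0.15 in KO mice (adjusted p = 1.75e-07 and 3.17e-07, edgeR). Cep19 had -2.05 ± 0.18 and -2.30 ± 0.18 (log2), and Cep97, which caps centrioles together with CCP110, had -1.80 ± 0.20 and -1.73 ± 0.19. The size of these differences moved with the adjustment for GC content and length. With the centred offset Cep170 was at -1.07 in WT and -0.97 in KO mice, and with the uncentred one at -0.55 and -0.46 (log2). For Cep97 these values were -1.32 and -1.06, then -0.80 and -0.55, and for Cep19 they were -2.95 and -3.19, then -2.44 and -2.69. All 6 brain libraries lay above all 6 liver libraries for 14 of the 34 Cep genes tested over the 12 libraries, these included, where 37.4% of all 18944 genes did. The reverse held for 2 Cep genes, Cep85 and Cep44, and for 29% of all genes.

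The genes higher in liver were fewer. Cep85 was at 51.7, 58.5 and 75.4 CPM in WT liver against 14.04, 13.04 and 12.45 CPM in WT brain. In KO mice it was at 52.2, 38.2 and 64.6 CPM in liver and at 15.0, 12.5 and 13.9 CPM in brain. Its log2 fold change was 2.24 ± 0.18 in WT and 1.90 ± 0.21 in KO mice (adjusted p = 1.10e-06 and 1.76e-05, edgeR), and no liver library overlapped a brain library. Cep44, which acts when a new centriole becomes a centrosome, was also higher in all 6 liver libraries, with 0.93 ± 0.20 in WT and 0.97 ± 0.19 in KO mice (log2). Its size moved with the adjustment for GC content and length: it was 3.87 and 4.47 with the centred offset and 4.37 and 4.98 with the uncentred one. Cep85l was called in both genotypes (0.71 ± 0.18 and 0.56 ± 0.22, and 1.19 and 1.35 with the centred offset), but without mouse F the KO difference was 0.21 and was not called (adjusted p = 0.400, edgeR). Cep57l1 was called higher in liver in WT mice alone and Cep164, a distal appendage protein, in KO mice alone.

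**Figure D2:**
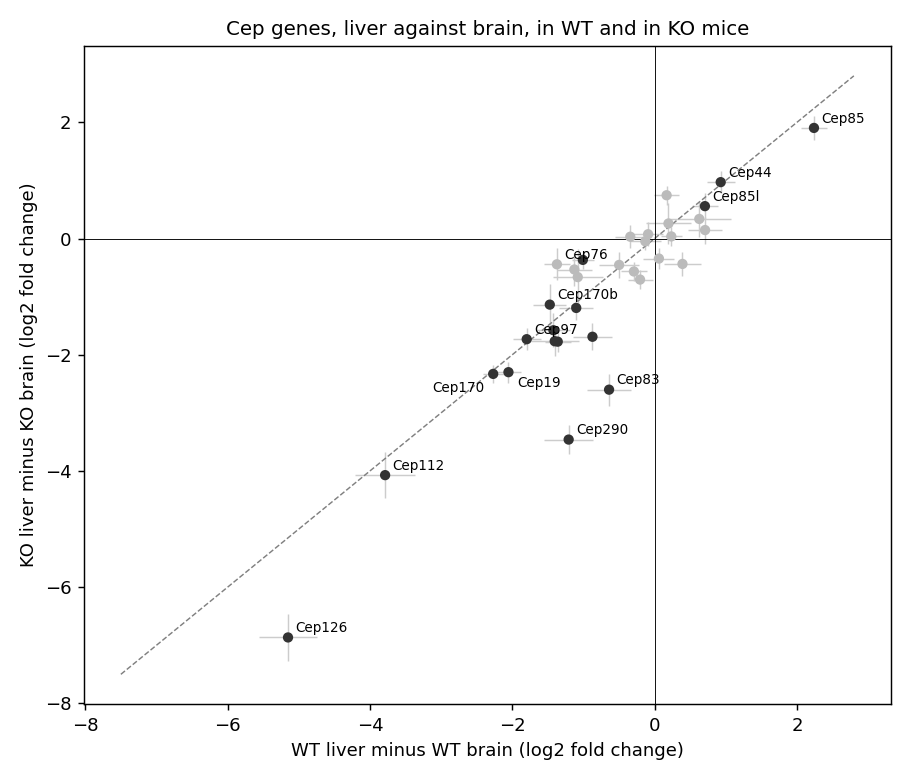
Log2 fold change of liver minus brain in WT mice (horizontal) and in KO mice (vertical) for 33 of the 34 Cep genes tested, with SE bars, black for genes called in both genotypes and grey for the others, and a dashed line of equal values. Most genes lie near the line, Cep126 and Cep112 at its lower end and Cep85 at its upper end, while Cep290 and Cep83 lie below it.

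Among the 14 appendage and cilium genes, 10 were called higher in brain and 0 higher in liver in WT mice, and 9 and 1 in KO mice, Cep83 included. Of the 14 genes of centriole assembly and number, 6 were called higher in brain and 3 higher in liver in WT mice, and 7 and 2 in KO mice. The 4 other centrosomal genes had 2 called higher in brain and 1 higher in liver in WT mice, and 3 and 1 in KO mice. The shares of all genes called higher in brain and higher in liver were 42.9% and 35.4% in WT mice and 44.1% and 36.2% in KO mice. The linker genes Cep250 and Cep68 passed the test in neither genotype, with log2 differences from -0.34 to 0.03. No test compared the roles.

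The counts by role also moved with the offset for GC content and length. With the uncentred offset the appendage and cilium genes gave 4 higher in brain and 6 higher in liver in WT mice, and 6 and 5 in KO mice. The genes of centriole assembly and number gave 3 and 8 in WT mice, and 2 and 7 in KO mice. Of all genes, 36% were called higher in brain and 47.3% higher in liver in WT mice under that fit, and 36.6% and 47.2% in KO mice. With the centred offset the appendage and cilium genes gave 4 and 2 in WT mice and 9 and 2 in KO mice. The assembly genes gave 5 and 5, then 4 and 4, where 44.2% and 37.2% of all genes were called in WT mice and 44.9% and 37.5% in KO mice. The 2 linker genes were both called higher in liver in each genotype with the uncentred offset, and 1 of them with the centred one. In each genotype the other centrosomal genes gave 2 and 1 with the uncentred offset and 3 and 1 with the centred one.

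Other genes of the centrosome and cilium came from 7 lists with 75 members that were written down with earlier results of these data known. In WT mice 52 of the 75 (69.3%) were called higher in brain and 9 (12%) higher in liver, where 42.9% and 35.4% of all genes were, with a median of -1.39 against -0.16 (log2). With the offset for GC content and length the counts were 38 and 18, where 36% and 47.3% of all genes were called. With the centred offset they were 51 and 8, where 44.2% and 37.2% were. All 7 genes of the BBSome, the coat that carries membrane proteins to and from cilia, were called higher in brain in both genotypes, also with either offset. Of the 17 transition zone genes, 14 were called higher in brain in WT mice, 12 with the offset and 14 with the centred one. The 12 genes of pericentriolar material and satellites were divided, with 5 higher in brain and 4 higher in liver in WT mice, 2 and 8 with the offset and 4 and 5 with the centred one. In WT mice the other lists had 7 of 12 higher in brain for centriole duplication, 8 of 10 for appendages and linker, 6 of 11 for intraflagellar transport B and 5 of 6 for intraflagellar transport A. With the offset these were 5, 4, 4 and 4, and with the centred one 8, 7, 7 and 4. Dividing-cell markers summed to 15.0 to 17.6 CPM in WT liver and to 6.52 to 6.87 CPM in WT brain, and ependymal markers to 1.11 to 2.27 and 33.1 to 54.5 CPM. Of the 8 dividing-cell markers tested between the WT tissues, 5 were higher in liver and 3 higher in brain. Fewer cells of a type and less RNA per cell cannot be told apart in such whole-tissue samples.

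KO and WT liver were compared to ask what went with the loss of Mettl5 in that tissue. Of 33 Cep genes tested in liver, 0 passed an adjusted p under 0.1 (edgeR), as did 0 of all 14075 genes (0%). At an unadjusted p under 0.05 there were 3 Cep genes lower in KO liver and 0 higher, where 4.57% and 2.76% of all genes were. DESeq2 called 2 Cep genes, Cep290 and Cep83, and 171 of 27088 genes (0.631%). Those genes were not filtered for low counts, unlike the 14075 of edgeR, so the shares are not on the same footing. KO and WT liver did not overlap for 6 Cep genes, 3 above and 3 below, against 8.03% and 5.18% of all genes. With Cep83 left out, 2 of 32 Cep genes were lower at an unadjusted p under 0.05 and DESeq2 called 1, Cep290. The median log2 fold change was -0.07, with 18 of 33 Cep genes lower in KO, but it was -0.12 without mouse D and 0.00053 without mouse E, where 16 were lower.

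Cep290, a protein of the ciliary transition zone that is changed in Joubert syndrome and in an inherited blindness, had the smallest p in liver. WT liver held 12.2, 6.45 and 18.9 CPM (mice B, D and E) and KO liver 4.70, 3.14 and 4.89 CPM (mice A, C and F). The KO libraries lay close together and below every WT library, and the WT libraries spread widely. The log2 fold change was -1.59 ± 0.38 (adjusted p = 0.428 with edgeR and 0.00876 with DESeq2). Without mouse D the edgeR adjusted p was 0.0644, and with a covariate for the mice without Y-linked transcripts 0.0894. Leaving out any other mouse gave an edgeR adjusted p from 0.477 to 0.985, and the centred offset gave 0.405. Without mouse E the log2 fold change was -1.16.

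Cep83, a distal appendage protein through which the older centriole docks at the membrane, was at 16.4, 8.12 and 18.4 CPM in WT liver and at 9.02, 4.14 and 6.16 CPM in KO liver. Mouse D, a WT mouse, lay below mouse A, a KO mouse, so the groups overlapped. The difference was -1.18 on the log2 scale. In brain Cep83 was at 25.9, 15.1 and 26.3 CPM in WT and at 46.5, 35.6 and 34.7 CPM in KO mice, all KO libraries above all WT libraries, with a difference of 0.80 (log2).

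The next genes in liver were smaller. Cep135, a structural protein of the centriole, had 17.45, 17.75 and 20.2 CPM in WT and 15.0, 12.4 and 15.3 CPM in KO liver, and the groups did not overlap (log2 fold change -0.40 ± 0.15, adjusted p = 0.593, edgeR). Cep57, which keeps paired centrioles together, had -0.44 ± 0.22, and Cep162, which links the centriole wall to the transition zone, -0.53 ± 0.31 (log2). Without mouse E these were -0.25 and -0.34. Cep57 and Cep162 did not reach an unadjusted p under 0.05. Over the 33 genes the fold changes ran from -1.59 for Cep290 to 0.42 for Cep112. The latter turned on single libraries: it was 1.20 without mouse E and -0.31 without mouse F.

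**Figure D3:**
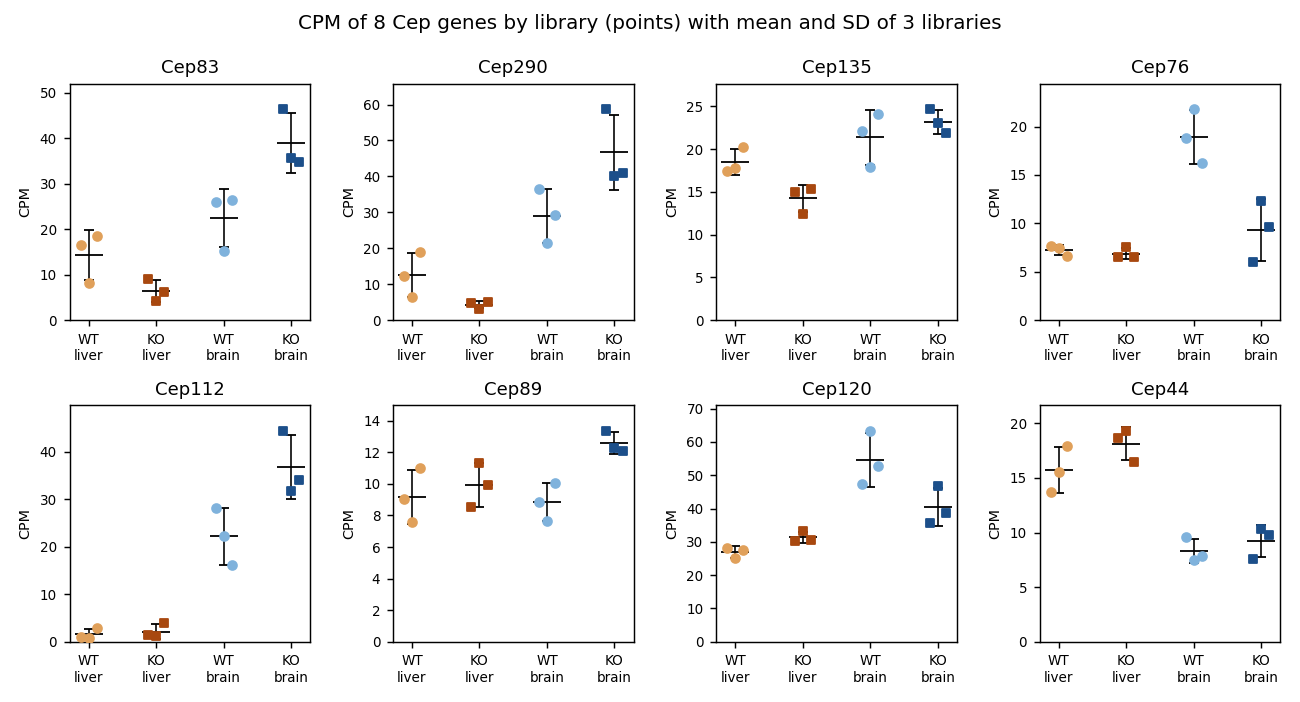
CPM of 8 Cep genes in each library (points), with the mean and SD of the 3 libraries of each group (bars); each vertical axis starts at 0. Cep290 is lower in KO than in WT liver and higher in KO than in WT brain, Cep76 falls from 16.2 to 21.8 CPM in WT brain to 5.98 to 12.35 CPM in KO brain, and Cep44 is higher in liver than in brain in both genotypes.

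In brain, 34 Cep genes were tested and 0 passed an adjusted p under 0.1 (edgeR), where 11 of all 17188 genes did (0.064%). At an unadjusted p under 0.05 there were 5 Cep genes higher and 2 lower in KO brain, where 5.96% and 5.01% of all genes were. DESeq2 called Cep83 and Cep76 and 267 of 31774 genes (0.84%), again not filtered for low counts. KO and WT brain did not overlap for 7 Cep genes above and 4 below, against 8.42% and 7.95% of all genes. With Cep83 left out, 4 of 33 Cep genes were higher and 2 lower at an unadjusted p under 0.05, DESeq2 called 1, Cep76, and 6 lay above and 4 below without overlap. The median log2 fold change was 0.08, with 21 of 34 Cep genes higher in KO.

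Cep76, which restrains the reduplication of centrioles together with CCP110, had the smallest p in brain. WT brain held 18.8, 21.8 and 16.2 CPM (mice B, D and E) and KO brain 5.98, 12.35 and 9.57 CPM (mice A, C and F). Every KO library lay below every WT library. The log2 fold change was -1.02 ± 0.25 (adjusted p = 0.320 with edgeR and 0.0235 with DESeq2). In liver Cep76 had 7.65, 7.48 and 6.66 CPM in WT and 6.55, 7.56 and 6.49 CPM in KO mice, which overlapped (-0.11 ± 0.20). The order of the 6 brain libraries by Cep76, A, F, C, E, B and D from lowest to highest, was also their order by the summed markers of cerebellar granule cells, which ran from 75.5 to 443 CPM in KO and from 606 to 1130 CPM in WT brain. Orders of other Cep genes and library measures were compared too, and only exact matches in the same direction are given. KO and WT brain did not overlap in either quantity, so part of the order follows from the split by genotype. The part of the tissue sampled in the Cep76 difference was not tested.

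Cep112 was at 28.2, 22.3 and 16.1 CPM in WT and at 44.4, 31.8 and 34.1 CPM in KO brain, again without overlap (log2 fold change 0.74 ± 0.22, adjusted p = 0.355, edgeR). Cep290 was at 36.35, 21.4 and 29.4 CPM in WT and at 58.8, 40.2 and 41.1 CPM in KO brain, all KO libraries above all WT libraries (0.69 ± 0.22, adjusted p = 0.373, edgeR). The order of the 6 brain libraries by Cep290, D, E, B, C, F and A from lowest to highest, was also their order by the share of counts from mitochondrial rRNA. Here too KO and WT brain overlapped in neither quantity, and the match was picked from the orders compared. Cep89, another distal appendage protein, was at 8.84, 7.67 and 10.1 CPM in WT and at 13.4, 12.3 and 12.1 CPM in KO brain (0.51 ± 0.17). Cep120 went the other way, with 47.4, 63.4 and 52.9 CPM in WT and 35.8, 46.75 and 38.6 CPM in KO brain (-0.43 ± 0.16). Cep70 had 0.45 ± 0.19 on the log2 scale.

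Markers of some brain regions also differed between the genotypes. Olfactory bulb markers (7 genes) summed to 34.8 to 52.4 CPM in KO and to 5.65 to 13.6 CPM in WT brain, with all 7 higher in KO, and choroid plexus markers (8 genes) to 22.5 to 25.9 CPM in KO and 34.5 to 48.7 CPM in WT brain, with all 8 lower. Dividing-cell markers (12 genes) summed to 9.18 to 9.68 CPM in KO and 6.52 to 6.87 CPM in WT brain, and in liver to 11.1 to 13.5 CPM in KO and 15.0 to 17.6 CPM in WT. The genes of that list did not all go with the sums. In brain 7 could be tested, 6 higher and 1 lower in KO, and in liver 5, with 2 higher and 3 lower. Ependymal markers overlapped in brain, with 29.8 to 37.3 CPM in KO and 33.1 to 54.5 CPM in WT. None of the 3 sperm markers had a count in any library. Their part in the Cep differences was not tested.

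Set beside each other, 12 of the 33 Cep genes tested in both tissues were lower with KO in liver but higher with KO in brain, 7 the reverse, 8 higher in both and 6 lower in both. Over the 12574 genes tested in both tissues these shares were 26.4%, 32.1%, 18.3% and 23.2%, and for the Cep genes 36.4%, 21.2%, 24.2% and 18.2%. For the difference of the liver effect and the brain effect, 0 of 34 Cep genes and 0 of 18944 genes (0%) were called (edgeR), and 9 Cep genes had an unadjusted p under 0.05, where 10.6% of all genes had. Since this contrast drew attention to Cep83, nothing is read from these counts. Cep290 had -2.24 (log2, liver effect minus brain effect) and Cep83 -1.95, which followed from their values in the 2 tissues given above. When mouse was kept as a block, since both tissues of an animal carry the same letter, both genes were called, Cep290 at -2.15 and Cep83 at -1.96, where 0.359% of all genes were. With the block and the centred offset for GC content and length, neither was called (-1.84 and -1.69).

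**Figure D4:**
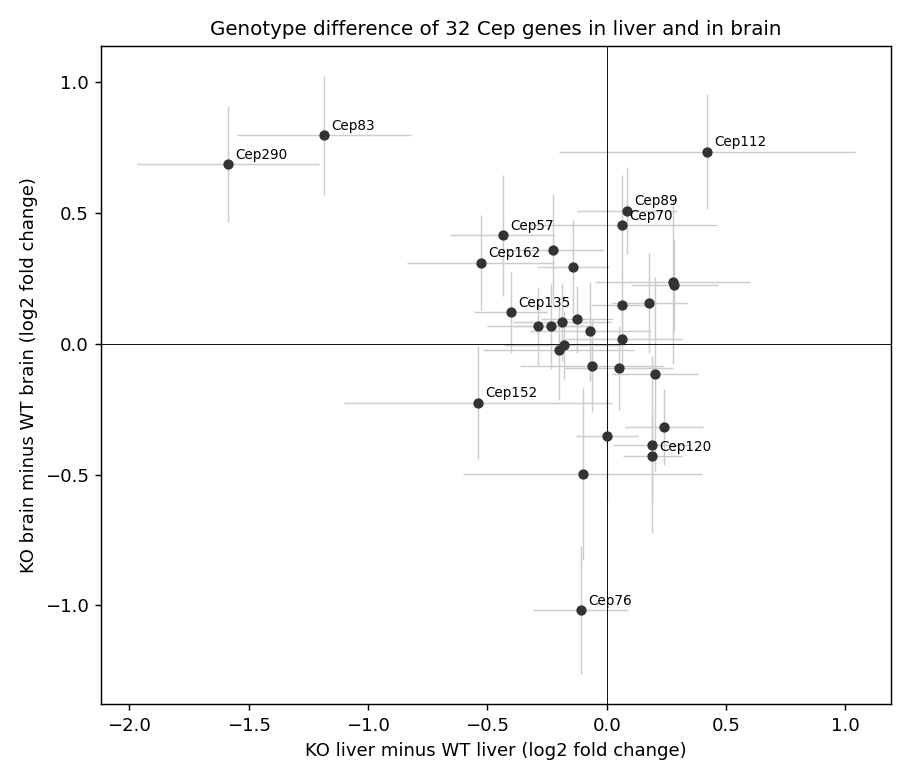
Log2 fold change of KO minus WT in liver (horizontal) and in brain (vertical) for 32 of the 33 Cep genes tested in both tissues, with SE bars. Cep290 and Cep83 stand at the upper left, below zero for liver and above zero for brain, Cep76 stands at the bottom with -1.02 in brain and -0.11 in liver, and most other genes lie within 0.5 of zero on both axes.

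GC content was examined because libraries differed in how counts varied with it. Cep transcripts ranged from 31.0% GC (Cep44) to 61.4% (Cep131) with a median of 46.2%, and 25 of the 34 tested in brain lay below the median of all genes tested, 48.8%. Cep290 (38.7%) and Cep83 (40.4%) were among the lowest. When all genes were cut into 5 equal bins of GC content, then in the lowest bin, the median genotype difference was -0.13 in liver and 0.24 in brain (log2), and in the highest bin it was 0.08 and -0.17. Over all genes, those at low GC content thus leaned down in KO liver and up in KO brain. The Cep genes of the lowest bin, Cep83 included, had a median of -0.14 in liver (10 genes) and 0.42 in brain (9 genes). Cep290 and Cep83 had these directions. Others did not in liver, among them Cep44 (0.18) and Cep70 (40.3% GC, 0.07). GC content as a cause was not tested. Across the Cep genes the Spearman correlation of fold change with GC content was 0.332 in liver (33 genes), and -0.539 for brain (34 genes), against 0.251 and -0.415 over all genes. Those points share the same 6 libraries in each tissue and are given as a description. They include Cep83, whose genotype values drew attention to the group, and were not computed without it.

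With the centred offset for GC content and length the liver value of Cep290 went from -1.59 to -1.43 and its brain value from 0.69 to 0.47. For Cep83 the liver value went from -1.18 to -1.06 and the brain value from 0.80 to 0.63 (log2). Cep76 in brain went from -1.02 to -1.14, away from zero. Between libraries, the slope of log2 CPM on GC content ran from -0.264 per 10 percentage points in KO brain A to 0.311 in WT brain D, which held the highest and the lowest Cep83 and Cep290 of the 6 brain libraries. Mitochondrial rRNA took 21.4 to 31.6% of counts in KO brain and 7.63 to 17.7% in WT brain. In KO liver it took 7.36 to 8.66% and in WT liver 10.7 to 16.9%. Its part in the Cep differences was not tested.

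**Figure D5:**
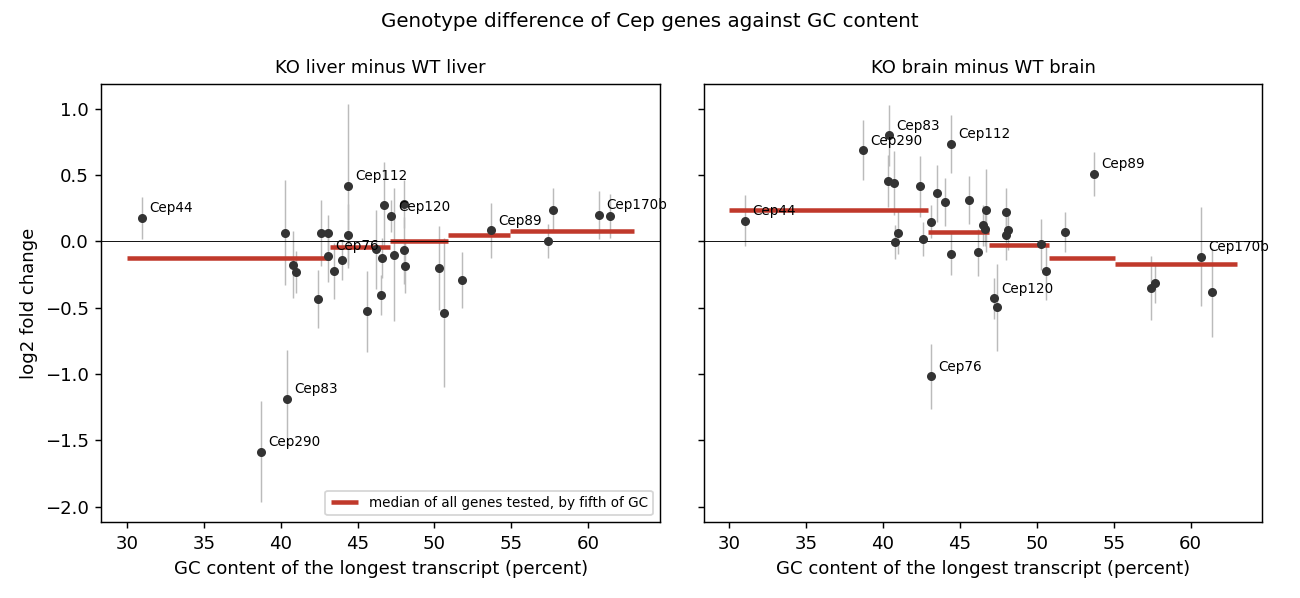
Log2 fold change of KO minus WT against the GC content of the longest transcript, for all but 1 of the Cep genes tested (points with SE) in liver (left) and brain (right), with red bars at the median of all genes tested in each of 5 equal bins of GC content. The red bars rise with GC content in liver, from -0.13 to 0.08, and fall in brain, from 0.24 to -0.17; Cep290 and Cep83 lie beyond them on the same side in both tissues.

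Cep83 and Cep290 lie on the plus strand of chromosome 10 (mm10), Cep83 at chr10:94688654-94790853 and Cep290 at chr10:100487558-100574840. The 250 bases before the RefSeq start of each (GRCm38.p6) are shown because these 2 genes moved alike, with capitals for the CCAAT box, a common promoter element, on either strand.
Cep83, chr10:94688540-94688789, plus strand: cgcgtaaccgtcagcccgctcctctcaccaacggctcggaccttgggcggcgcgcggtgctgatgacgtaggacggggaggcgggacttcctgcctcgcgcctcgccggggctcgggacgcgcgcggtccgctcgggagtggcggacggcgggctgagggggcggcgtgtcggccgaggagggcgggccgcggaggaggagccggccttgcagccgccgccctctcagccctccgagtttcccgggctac
Cep290, chr10:100487332-100487581, plus strand: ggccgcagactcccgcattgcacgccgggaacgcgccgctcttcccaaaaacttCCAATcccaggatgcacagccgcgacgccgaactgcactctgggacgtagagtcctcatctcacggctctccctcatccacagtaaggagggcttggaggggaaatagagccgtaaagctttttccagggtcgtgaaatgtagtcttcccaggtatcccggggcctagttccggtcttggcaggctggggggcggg
The Cep83 stretch is 76.4% GC and the Cep290 stretch 60.8%. CCAAT was searched on both strands from 250 bases before to 50 after the start, and was present in 15 of the 30 Cep promoters with an entry and in 37.9% of 27025 promoters. It was in Cep290 and not in Cep83. GTTGCC, the core of the X-box bound by RFX factors, regulators of ciliary genes, was searched in the same way and was present in 8 of the 30 and in 12.7% of all, and in neither Cep83 nor Cep290. A match is only a run of letters.

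Cep83os, a noncoding RNA read from the other strand, starts close by, so that the stretches before both starts overlap. The counts were made by strand. Cep83os was at 1.31, 1.43 and 1.91 CPM in WT liver and at 1.62, 2.14 and 2.74 CPM in KO liver, and at 10.7, 8.27 and 12.1 CPM in WT and 10.4, 9.35 and 9.31 CPM in KO brain. The genotypes overlapped in both tissues, with log2 fold changes of 0.45 ± 0.37 in liver and -0.10 ± 0.19 in brain. It was higher in brain than in liver in WT (-2.73 ± 0.28) and in KO mice (-2.15 ± 0.26, liver minus brain).

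The other centrosome and cilium genes gave 0 called of 71 tested in liver and 0 of 75 in brain (edgeR). At an unadjusted p under 0.05, 8 were lower and 0 higher in KO liver, and 9 were higher and 5 lower in KO brain. In shares these were 11.3% and 0% in liver, where 4.57% and 2.76% of all genes were, and 12% and 6.67% in brain, where 5.96% and 5.01% were. Their medians were -0.02 in liver and -0.00037 in brain (log2). The genes with the smallest p of each list in liver were Ift74, an intraflagellar transport protein (-1.88 ± 0.58), Akap9, a kinase anchor at the centrosome (-0.72 ± 0.28), Tctn1 of the transition zone (0.65 ± 0.34), Bbs5 of the BBSome (0.60 ± 0.36), Cntrl of the subdistal appendages (-0.48 ± 0.15), Cetn3, a centrin (-0.41 ± 0.16), and Ift140 (-0.34 ± 0.18). In brain they were Cntln of the linker (1.01 ± 0.30), Tubg1, gamma-tubulin (-0.82 ± 0.19), Ift74 (0.79 ± 0.24), Ofd1 of the centriole end (0.51 ± 0.18), Ttc8 of the BBSome (0.35 ± 0.21), Ahi1 of the transition zone (0.32 ± 0.14) and Ift43 (-0.22 ± 0.24). Ift74 thus had the signs of Cep290 and Cep83, a lower value with KO in liver and a higher one in brain. Among these values, Tctn1, Ift140, Bbs5, Ift43 and Ttc8 did not reach an unadjusted p under 0.05.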

How the data were processed

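Total RNA libraries that keep strand were read from 1 end by the authors, who used Trimmomatic for trimming, STAR for alignment to mm10 and featureCounts, by strand, for exon counts. The deposited values are raw counts per gene, with no normalisation, and totals ran from 14403309 to 21623180 counts per library. Each library is 1 mouse and tissue. Libraries of a group correlated at 0.974 to 0.989 (log2 CPM, 18944 genes).

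Groups followed the labels. Symbols and biotypes came from GENCODE for mm10, which matched 55141 identifiers, and GC content from each gene's longest transcript. The Cep genes, role lists, pathway lists and marker lists were chosen with earlier results of these data known. Counts were fitted with edgeR 4.0.16 in R 4.3.3 (TMM, filterByExpr, robust quasi-likelihood F test, Benjamini-Hochberg over all genes tested, call at an adjusted p under 0.1), each comparison on its own 6 libraries and the difference between tissues on all 12. SE came from the F statistic. Named genes were those with the 6 smallest p in a genotype comparison, the 5 largest tissue differences each way, the 3 highest and lowest levels per length, Cep83, Mettl5 and the smallest p of each pathway list. Others were named after their values were seen, and 1 gene the rule names is not reported here by name. Fits were tested on simulated data.

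Alternatives were RLE scaling, DESeq2 1.42.0, no filter on low counts, no robust dispersions, an offset from a smooth of each library's deviations on GC content and length, a covariate for libraries without Y-linked transcripts, all 12 libraries in 1 fit, leaving out each mouse, and mouse as a block, since labels give both tissues of an animal 1 letter. The deviations from group means in liver and in brain of 1 mouse correlated from -0.034 (mouse A) to 0.116 (mouse E). As first run, the offset also moved the overall scaling; it was kept as planned, and a centred form was added after that result was seen. The covariate, set by library from all Y-linked counts, marked both libraries of mouse F but only the liver of mouse E, so that in brain its fit came close to leaving out mouse F; it was added again, set by mouse, after this was seen. Promoter sequences came from RefSeq (GRCm38.p6), with entries for 30 of the 35 genes. Counting limits cover counting error only.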

Additional observations from a re-analysis of the deposited data

Results flagged for a closer look

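Cep290 and Cep83 are listed here because both had an adjusted p under 0.1 for the difference between tissues, with mouse as a block (edgeR). The genotype effect in liver minus that in brain was -2.15 for Cep290 (adjusted p = 0.0478) and -1.96 for Cep83 (adjusted p = 0.0339) on the log2 scale. Without the block the adjusted p was 0.132 and 0.160. With the block and the centred offset for GC content and length it was 0.115 and 0.110, and with the uncentred offset 0.0647 and 0.0571. The group was proposed from this contrast in Cep83, so the values of both genes are a description and are not used as evidence.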

How the results depend on the processing

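Of 5 counts of called Cep genes, the 2 between tissues stayed within 1.5 times of 22 (WT) and 23 (KO) under all alternatives, although the direction of the calls moved with the GC and length offset. The median tissue difference of the Cep genes in WT mice, -0.75, became 0.40 with the GC and length offset, 0.38 with the replicate block and that offset, -0.10 with the centred offset and -0.13 with the block and the centred offset. In KO mice it went from -0.49 to 0.088 and 0.058 with the uncentred offset, without and with the block. The block alone gave 22 and 21 calls. For KO against WT liver the count went from 0 to 2 with DESeq2 (0.631% of all genes) and with no filter on low counts (1.63%), to 1 with the covariate for Y-linked transcripts, set by library or by mouse (Cep290, 0.583%), and to 0 to 1 when a mouse was left out (Cep290, without mouse D, 0.597%). The liver median, -0.07, ran from -0.122 to 0.000534 when a mouse was left out. For KO against WT brain it went from 0 to 2 with DESeq2 (0.84%) and to 4 with no filter (3.15% of all genes), and the median ran from 0.0245 to 0.143 when a mouse was left out. For the difference between tissues, the count went from 0 to 2 with DESeq2 (1.07%), to 1 with the uncentred offset (0.248%), to 2 with the replicate block (0.359%) and 2 with the block and the uncentred offset (0.306%), and to 0 to 2 without 1 mouse (2 without mouse D, 0.442%); with the centred offset it was 0, with or without the block. Its median, -0.14, ran from -0.230 to 0.108 when a mouse was left out. The cause of these shifts was not tested. Shares given for DESeq2 and for no filter are over genes not filtered for low counts, so they are not on the same footing as the others. Of the tissue differences given for Cep126, Cep112, Cep170, Cep19, Cep97, Cep85, Cep44 and Cep85l, only that of Cep85l in KO mice lost its call, without mouse F, although both offsets changed the sizes for Cep170, Cep97, Cep19, Cep44 and Cep85l; the count of KO tissue calls without mouse F was 18. Low counts limit Cep55, Cep126 in liver and Cep72. The block ended the KO tissue calls of Cep57 and Cep95 and changed no other call beside those of Cep290 and Cep83.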
